A study of Mus musculus with 18 samples.

Results

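Transcripts of 9 lymphocyte marker genes were followed through 18 mouse livers recovering from chemical injury. The genes were taken by name from a list of markers: 3 of B cells (Cd79a, Cd79b and Ms4a1), 4 of T cells (Cd3e, Cd3g, Cd4 and Cd8a) and 2 of cytotoxic lymphocytes (Nkg7 and Gzma, shared by natural killer (NK) cells and cytotoxic T cells). They were chosen with earlier results of these data known. They are 9 of the 34937 genes in the count tables, and all 9 passed the filter on low counts, as did 17789 genes in all.

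The livers came from mice given carbon tetrachloride (CCl4), a hepatotoxin, by intraperitoneal injection at 0.5 µL per g of body weight, dissolved in oil. MycER is a fusion of the Myc transcription factor to an oestrogen receptor domain, which tamoxifen activates, and activation was by daily intraperitoneal tamoxifen (1 mg). Group 12 was labelled as day 12 of recovery with MycER not activated, and group 12ON as day 12 with MycER activated. Groups 1OFF, 2OFF, 3OFF and 7OFF were labelled with days 1, 2, 3 and 7 and no activation. Whether MycER had been active earlier in the OFF mice, whether group 12 received tamoxifen, what drives MycER, and the sex and sampling hour are not given in the sources used here. Each group held 3 mice, with 1 library of poly-A RNA per mouse. The comparisons of the study were 12ON against 12 and the 4 OFF groups against 12ON. Comparisons of the OFF groups with group 12 were added here.

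B cells recognise antigen through a membrane immunoglobulin that signals by way of the CD79A and CD79B proteins, while MS4A1, known as CD20, is a further surface protein of mature B cells. T cells recognise antigen through a T cell receptor that signals by way of the CD3 chains, with CD4 or CD8 as coreceptor, and cytotoxic cells carry granules with NKG7 in the membrane and granzyme A as cargo. The liver holds resident NK cells and T cells in its sinusoids, and B cells that circulate through it. In liver RNA these transcripts come from a small minority of cells, so their levels are low.

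The members differed in the sequence upstream of their start sites as well as in the cell that uses them. RefSeq promoter entries on GRCm38.p6 matched 6 of the 9 members: Cd79a, Cd3e, Cd3g, Cd8a, Nkg7 and Gzma. The stretches below are those of Cd79a, which moved the most at day 12, of the chromosome 9 neighbours Cd3e and Cd3g, and of Nkg7 and Gzma. In the fit of all libraries Nkg7 and Gzma were not called in any comparison, and neither was Cd3e. Each runs 5′ to 3′ on the gene's strand and ends before the start sites of both RefSeq and Ensembl, with motif matches in capitals. The Cd79a stretch is chr7:24897247-24897380 on the plus strand, Cd3e is chr9:45009612-45009861 on the minus strand and Cd3g is chr9:44980432-44980681 on the minus strand. The Nkg7 stretch is chr7:43436888-43437072 on the plus strand and that of Gzma is chr13:113100982-113101231 on the minus strand.
Cd79a: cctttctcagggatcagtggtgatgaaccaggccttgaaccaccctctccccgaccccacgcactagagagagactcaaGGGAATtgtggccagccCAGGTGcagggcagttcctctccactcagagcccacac
Cd3e: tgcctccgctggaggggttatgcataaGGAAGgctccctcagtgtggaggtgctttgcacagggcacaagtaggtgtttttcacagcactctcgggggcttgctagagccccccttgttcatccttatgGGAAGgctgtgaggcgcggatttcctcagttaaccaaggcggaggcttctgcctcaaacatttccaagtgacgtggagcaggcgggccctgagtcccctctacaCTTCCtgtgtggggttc
Cd3g: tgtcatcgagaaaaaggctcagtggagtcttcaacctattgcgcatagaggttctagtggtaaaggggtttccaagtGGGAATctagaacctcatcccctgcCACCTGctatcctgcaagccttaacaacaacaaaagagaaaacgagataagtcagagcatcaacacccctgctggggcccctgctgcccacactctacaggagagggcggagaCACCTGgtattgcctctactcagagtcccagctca
Nkg7: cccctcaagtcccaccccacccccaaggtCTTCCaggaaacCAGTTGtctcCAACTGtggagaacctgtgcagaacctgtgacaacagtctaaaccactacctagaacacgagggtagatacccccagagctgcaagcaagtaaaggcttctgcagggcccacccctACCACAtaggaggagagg
Gzma: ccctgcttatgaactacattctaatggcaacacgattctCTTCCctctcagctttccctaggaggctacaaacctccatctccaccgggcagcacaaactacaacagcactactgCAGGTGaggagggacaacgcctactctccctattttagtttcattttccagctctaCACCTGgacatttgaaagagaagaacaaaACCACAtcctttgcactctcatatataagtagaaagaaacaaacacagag

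Motifs of lymphocyte factors were searched on both strands in the 250 bases before each RefSeq start. They were CCCNNGGG for EBF, CANCTG for E2A-type E-boxes, GGAAG for ETS factors, TGTGGT for RUNX factors, ATGCAAAT for the octamer, and GGGAAT, a shorter EBF motif added after the Cd79a sequence had been seen. No motif contains another. In Cd79a the capitals mark GGGAAT, which begins at position -171 from the RefSeq start, and an E-box at -154. Among all 32851 promoter windows of this length GGGAAT was found in 11.43% and the E-box in 44.82%, and Cd3g held both as well. The 3 capital runs in Cd3e are ETS motifs, found in 64.07% of windows. The Cd79a window held 1 as well, at -54, beyond the stretch shown. Nkg7 and Gzma were the only ones of the 6 members with the RUNX motif (ACCACA on the strand shown), found in 14.05% of windows, and each also held E-boxes and ETS motifs. CCCNNGGG (11.82% of windows) and the octamer (1.601%) were found in none of the 6. A match describes the letters only.

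Read counts, deposited per gene, were scaled to CPM, the usual count relative to library size, with TMM factors that adjust for composition. The libraries held 23057899 to 75276898 counts. A member had between 6 and 311 reads in a library, so counting error is large: the 12 Cd79a reads of the second 12ON library have an exact Poisson 95% interval of 6.20 to 21.0. The hepatocyte markers were high in all libraries, with Alb at 91868 ± 3751 CPM in group 12 and 24030 ± 3132 in 12ON (SD, n = 3). High Xist, a transcript of female cells, was found in 5 libraries, in none of 1OFF and in 1 of each other group. The mitochondrial share of counts was 4.80 to 5.25% in group 12 and 6.42 to 7.11% in 12ON.

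At day 12, all 3 B cell genes were lower in livers with active MycER. Cd79a and Cd79b had larger log2 differences than any T cell or cytotoxic gene on the list. The Ms4a1 difference exceeded that of the T cell gene Cd8a by less than the SE of either. With the mitochondrial share as a term Ms4a1 fell less than Cd8a (-1.61 against -1.71). Cd79a had 1.87, 1.48 and 1.94 CPM in the group 12 livers and 0.259, 0.264 and 0.264 CPM in the 12ON livers. Cd79b had 1.45, 1.35 and 1.46 CPM in group 12 and 0.369, 0.264 and 0.283 CPM in 12ON. Ms4a1 had 0.519, 1.73 and 1.29 CPM in group 12 and 0.314, 0.484 and 0.415 CPM in 12ON. The lowest group 12 liver was above the highest 12ON liver for each of the 3, narrowly for Ms4a1, whose first group 12 library was low, and 28.2% of all tested genes were separated downward in this way. With library totals in place of TMM the Ms4a1 groups overlapped. The first group 12 library then had 0.434 CPM and the 12ON libraries 0.363, 0.601 and 0.490. Cd79a fell by 2.73 ± 0.46 on the log2 scale (SE), to a level 6.66-fold lower (edgeR quasi-likelihood test, adjusted p = 1.82e-04). The fall was 2.20 ± 0.41 for Cd79b (adjusted p = 4.04e-04) and 1.58 ± 0.39 for Ms4a1 (adjusted p = 0.00379), each given as a log2 difference. In whole liver, fewer B cells and less of these RNAs per cell cannot be told apart.

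**Figure D1:**
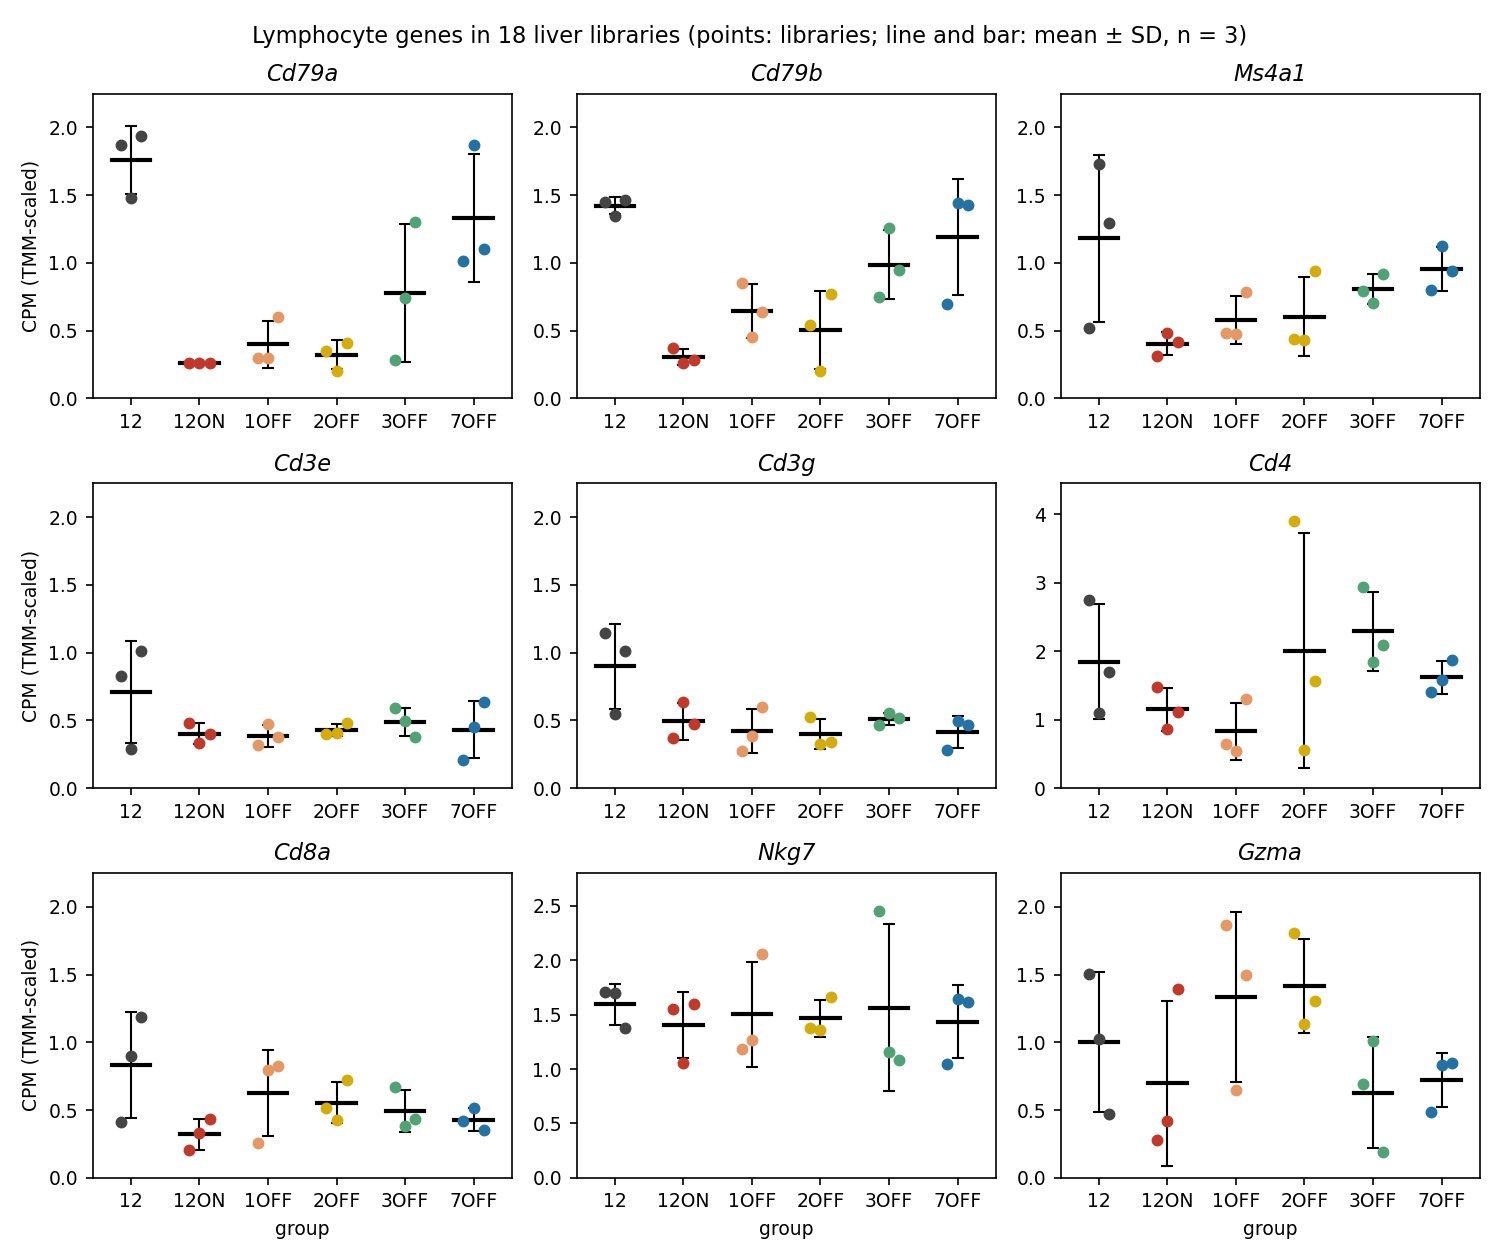
TMM-scaled CPM (linear axis from 0, a different range in some panels) of each lymphocyte gene in the 18 liver libraries, with points for libraries and a line and bar for the mean ± SD of 3 mice. Cd79a and Cd79b have their lowest means in 12ON and higher ones in 3OFF and 7OFF, while the Nkg7 means lie between 1.40 and 1.60 CPM in all 6 groups.

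The T cell genes had smaller differences at day 12, although that of Cd8a was close to that of Ms4a1. Cd8a, the alpha chain of the CD8 coreceptor, had 0.415, 0.898 and 1.18 CPM in group 12 and 0.203, 0.330 and 0.434 CPM in 12ON, and it fell by 1.42 ± 0.45 (log2, adjusted p = 0.0172) although the groups overlapped. Cd3g, the gamma chain of CD3, had 1.14, 0.545 and 1.01 CPM in group 12 and 0.369, 0.637 and 0.471 CPM in 12ON. Its log2 difference of -0.86 ± 0.34 just missed the threshold (adjusted p = 0.0503), and passed it without the second group 12 library (-1.12, adjusted p = 0.0175) or the second 12ON library (-1.08, adjusted p = 0.0400). Cd3e, the epsilon chain of CD3, had 0.830, 0.289 and 1.01 CPM in group 12, with the second library lowest, and 0.480, 0.330 and 0.396 CPM in 12ON. Its log2 difference was -0.82 ± 0.40 (adjusted p = 0.107), or -1.20 without that second library (adjusted p = 0.0136). Cd4, the helper T cell coreceptor that some macrophages also express, had 2.75, 1.09 and 1.70 CPM in group 12 and 1.48, 0.857 and 1.11 CPM in 12ON. Its log2 difference was -0.65 ± 0.53 (adjusted p = 0.330), and the groups overlapped for all 4 T cell genes.

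The cytotoxic genes did not pass the test. Nkg7 had 1.71, 1.70 and 1.38 CPM in group 12 and 1.55, 1.05 and 1.60 CPM in 12ON, a log2 difference of -0.17 ± 0.31 (adjusted p = 0.678). Gzma had 1.505, 1.03 and 0.474 CPM in group 12 and 0.277, 0.418 and 1.40 CPM in 12ON, with the third 12ON library apart from the others, and a log2 difference of -0.45 ± 0.63 (adjusted p = 0.580). With library totals in place of TMM these 2 differences became 0.32 and 0.051, so no direction is given for them. Together, 4 of 9 members fell and none rose, where 22.6% of all tested genes fell and 24.0% rose. The median log2 difference was -2.20 over the B cell genes, -0.84 over the T cell genes and -0.31 over the cytotoxic genes, against -0.00 over all tested genes. Scaling to library totals moved the median of all genes by 0.49 and changed the share of lower and higher genes to 7.89% and 51.3%, and 3 members (the B cell genes) still fell. The Cd8a call was lost under that scaling (adjusted p = 0.0892), without the third group 12 library (adjusted p = 0.106), without the first 12ON library (adjusted p = 0.0736), and with low-Xist libraries alone (adjusted p = 0.212). With the mitochondrial share as a term, the calls of Cd8a (-1.71 ± 0.71, adjusted p = 0.0932) and Ms4a1 (-1.61 ± 0.63, adjusted p = 0.0759) were lost, at differences no smaller and with larger SE.

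In the OFF groups the B cell genes were low on days 1 and 2 and higher on days 3 and 7. Cd79a had 0.296, 0.301 and 0.598 CPM in 1OFF and 0.351, 0.202 and 0.410 CPM in 2OFF. It then had 0.284, 0.742 and 1.30 CPM in 3OFF and 1.01, 1.87 and 1.10 CPM in 7OFF. The 3OFF livers were spread from a level near that of 12ON to a level near that of 7OFF. Cd79b had 0.851, 0.451 and 0.635 CPM in 1OFF and 0.539, 0.202 and 0.771 CPM in 2OFF. It had 0.750, 1.26 and 0.949 CPM in 3OFF and 0.699, 1.44 and 1.43 CPM in 7OFF, where the first library was lower than the others. Ms4a1 had 0.481, 0.473 and 0.785 CPM in 1OFF and 0.438, 0.429 and 0.940 CPM in 2OFF, with the third library of each the highest. It had 0.791, 0.704 and 0.921 CPM in 3OFF and 0.803, 1.13 and 0.938 CPM in 7OFF, and all 6 of these libraries were above the 3 of 12ON.

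Against 12ON, no member passed the test in 1OFF, where 1 gene of all those tested was called (0.00562% higher and 0.00% lower). By edgeR, 1 member had an unadjusted p under 0.05 in 1OFF, Cd79b, at a log2 difference of 1.08 ± 0.41 (adjusted p = 0.241). In 2OFF 0 members passed, with 0.00% of all genes called, and 0 had an unadjusted p under 0.05. DESeq2 called 0 members in either. In 3OFF, 2 members rose and none fell, where 15.3% of genes rose and 17.0% fell. Cd79b rose by 1.68 ± 0.40 (log2, adjusted p = 0.00535) and Cd79a by 1.53 ± 0.46 (adjusted p = 0.0188). For Ms4a1 the log2 difference was 0.99 ± 0.39 (adjusted p = 0.0641), and it passed with 12ON and 3OFF fitted alone (0.99, adjusted p = 0.0246). The 3OFF libraries did not overlap those of 12ON for any of the 3 B cell genes, nor for Cd4, a separation seen upward in 25.1% of all genes. With library totals in place of TMM the Cd79a groups overlapped. The first 3OFF library then had 0.278 CPM, below the 12ON libraries (0.299, 0.328 and 0.312). The Cd79a rise rested on the third 3OFF library, without which it was 0.97 (adjusted p = 0.126). It also lost its call without the first (adjusted p = 0.0537), the second (0.0603) or the third (0.0540) 12ON library, and with 12ON and 3OFF fitted alone (adjusted p = 0.0582). With the low-Xist libraries alone, Cd79a (adjusted p = 0.271) and Cd79b (adjusted p = 0.0888) both lost it.

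In 7OFF, all 3 B cell genes rose against 12ON and no T cell or cytotoxic member passed, where 21.4% of genes rose and 22.7% fell. Cd79a rose by 2.34 ± 0.45 on the log2 scale, 5.06-fold (adjusted p = 7.09e-04), Cd79b by 1.97 ± 0.40 (adjusted p = 0.00106) and Ms4a1 by 1.25 ± 0.39 (adjusted p = 0.0171). All 3 were higher in each 7OFF library than in any of 12ON, as were 26.2% of tested genes. The 6 other members had log2 differences from -0.21 (Cd3g) to 0.49 (Cd4), with adjusted p from 0.472 to 0.944. Library totals moved the median of all genes by -0.41 and the share of higher and lower genes to 7.58% and 46.1%, and Cd79a and Cd79b still rose. The Ms4a1 call was lost under that scaling (adjusted p = 0.0805), without the first 12ON library (adjusted p = 0.0715) or the second 7OFF library (adjusted p = 0.0608), with the mitochondrial term (1.27 ± 0.48, adjusted p = 0.0556) and with low-Xist libraries alone (1.41 ± 0.54, adjusted p = 0.0681).

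**Figure D2:**
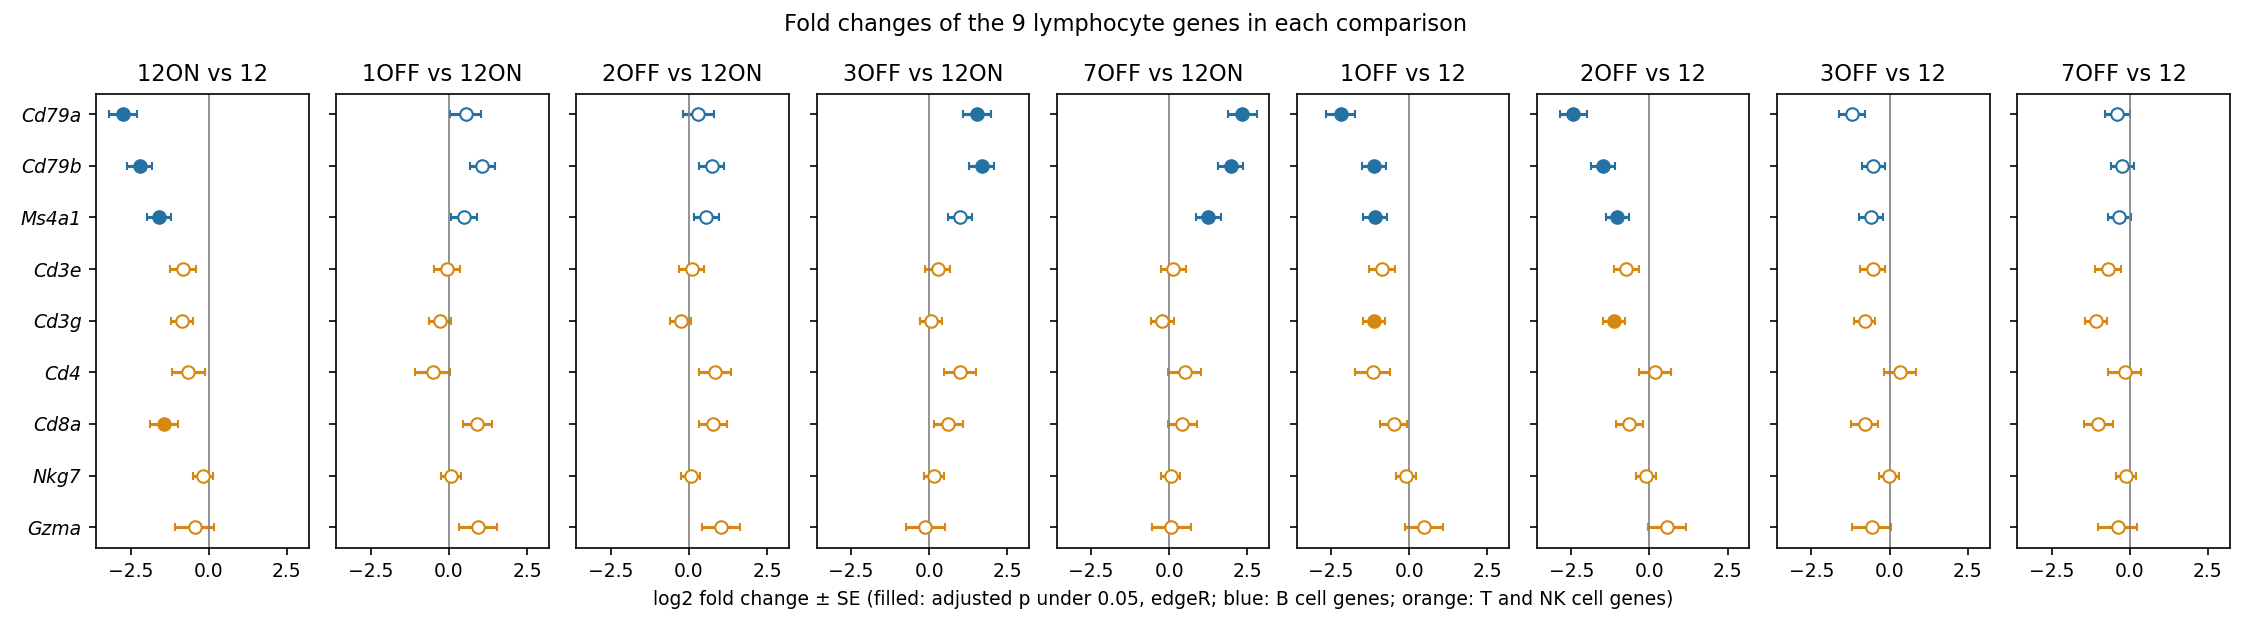
Log2 fold change ± SE (horizontal axis) of the 9 lymphocyte genes in 9 comparisons, with filled points for adjusted p under 0.05 in edgeR, blue for B cell genes and orange for T and NK cell genes. The B cell points lie left of 0 in 12ON, 1OFF and 2OFF against group 12, and the filled points right of 0 are B cell genes in 3OFF and 7OFF against 12ON.

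The T cell and cytotoxic genes had no comparable course. Cd3e means lay between 0.387 and 0.487 CPM in 12ON and the 4 OFF groups, with all libraries between 0.210 and 0.633. Cd3g means in those groups lay between 0.397 and 0.511 CPM, and Cd8a means between 0.322 and 0.625 CPM. Neighbours in these orders overlapped in their libraries. Cd4 varied most between mice of a group: in 2OFF it had 3.90, 0.555 and 1.57 CPM. Its 3 libraries in 3OFF (2.94, 1.85 and 2.09 CPM) were all above those of 12ON, with a log2 difference of 0.99 ± 0.52 (adjusted p = 0.154) in the fit of all groups and an adjusted p of 0.0279 with these groups fitted alone. Nkg7 means stayed between 1.40 and 1.60 CPM in all 6 groups, although the first 3OFF library reached 2.45 CPM. Gzma had 1.87, 0.645 and 1.49 CPM in 1OFF and 1.80, 1.14 and 1.30 CPM in 2OFF, then 0.689, 1.01 and 0.190 CPM in 3OFF and 0.489, 0.834 and 0.844 CPM in 7OFF. Its means of 1.34 ± 0.63 and 1.41 ± 0.35 CPM on days 1 and 2 were its highest, and 2OFF did not overlap 3OFF or 7OFF, a difference that was not tested.

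Against group 12, the early OFF livers had lower B cell genes, and the late ones were not separated by the test. In 1OFF 4 members were lower and none higher, where 16.3% of genes were lower and 17.1% higher. Cd79a was lower by a log2 difference of -2.20 ± 0.45 (adjusted p = 0.00172). The other 3 were Cd79b, Ms4a1 and Cd3g, at differences of -1.13, -1.09 and -1.13 with adjusted p between 0.0229 and 0.0406. In 2OFF the same 4 genes were lower, where 17.0% of genes were lower and 18.1% higher, with Cd79a at -2.43 ± 0.45 (adjusted p = 7.35e-04) and Cd79b at -1.48 ± 0.39 (adjusted p = 0.00782). Ms4a1 (-1.02, adjusted p = 0.0479) and Cd3g (-1.13, adjusted p = 0.0193) completed them. Among these calls only Cd79a in both groups and Cd79b in 2OFF remained whichever library was left out: 1 to 3 of the 4 stayed in 1OFF and 2 to 3 in 2OFF. Without the first group 12 library, Cd3g lost its call in 1OFF (adjusted p = 0.0813) and in 2OFF (0.0722), and Cd79b in 1OFF (0.0706). Without the second group 12 library Ms4a1 lost it in 1OFF (adjusted p = 0.196) and in 2OFF (0.233), and Cd79b in 1OFF (0.0621), while Cd3e gained one in 1OFF (-1.26, adjusted p = 0.0180) and in 2OFF (-1.12, adjusted p = 0.0277). Without the third, Ms4a1 (0.0982 and 0.113) and Cd3g (0.0819 and 0.0745) lost theirs in 1OFF and 2OFF, and Cd79b lost it in 1OFF (0.0776). Leaving out any single 1OFF library also ended calls among Cd79b, Ms4a1 and Cd3g, with adjusted p of 0.0738 to 0.138, and leaving out any single 2OFF library ended those of Ms4a1 or Cd3g, with adjusted p of 0.0598 to 0.169. With the mitochondrial term 0 members were called in 1OFF, where the share of all genes called lower was 3.82%, and 1, Cd79a, in 2OFF, where it was 3.92%. In 1OFF the differences under this term were -2.18 ± 0.69 for Cd79a, -0.86 ± 0.59 for Cd79b, -1.13 ± 0.62 for Ms4a1 and -1.17 ± 0.55 for Cd3g, with larger SE than without it.

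In 3OFF against group 12, 0 members passed in edgeR, where 7.95% of genes were lower and 9.47% higher, and 2 members (Cd79a and Cd3g) had an unadjusted p under 0.05. Cd79a was at -1.20 ± 0.42 (adjusted p = 0.0592), and DESeq2 called it alone (adjusted p = 0.0350), as did edgeR without the third 3OFF library (-1.77, adjusted p = 0.0147). In 7OFF 0 members passed, where 3.31% of genes were lower and 2.47% higher, 2 (Cd3g and Cd8a) had an unadjusted p under 0.05 and DESeq2 called 0. The differences of 7OFF from group 12 were -0.40 ± 0.41 for Cd79a, -0.24 ± 0.37 for Cd79b and -0.33 ± 0.37 for Ms4a1, while that of Cd3g was -1.07 ± 0.35 (adjusted p = 0.0875). A missed threshold does not show equal levels.

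The balance of B cell against T and NK cell genes was described by the mean log2 CPM of the 3 B cell genes minus that of the 6 others in each library. It was -0.08, 0.86 and 0.53 in the group 12 livers and -0.73, -0.69 and -1.18 in 12ON. The OFF livers had -0.19, -0.61 and -0.49 on day 1 and -1.15, -1.09 and -0.35 on day 2. On day 3 the values were -0.79, 0.14 and 0.78, and on day 7 they were 0.63, 0.82 and 0.47. All group 12 and all 7OFF libraries were therefore above all libraries of 12ON, 1OFF and 2OFF, and 3OFF spanned both ranges. Group means were 0.44 ± 0.48 in group 12, -0.87 ± 0.28 in 12ON and 0.64 ± 0.18 in 7OFF (SD, n = 3). The B cell mean was nearly the same in the 3 livers of 12ON, at -1.49, -1.44 and -1.47, while the T and NK cell mean there ran from -0.76 to -0.29.

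**Figure D3:**
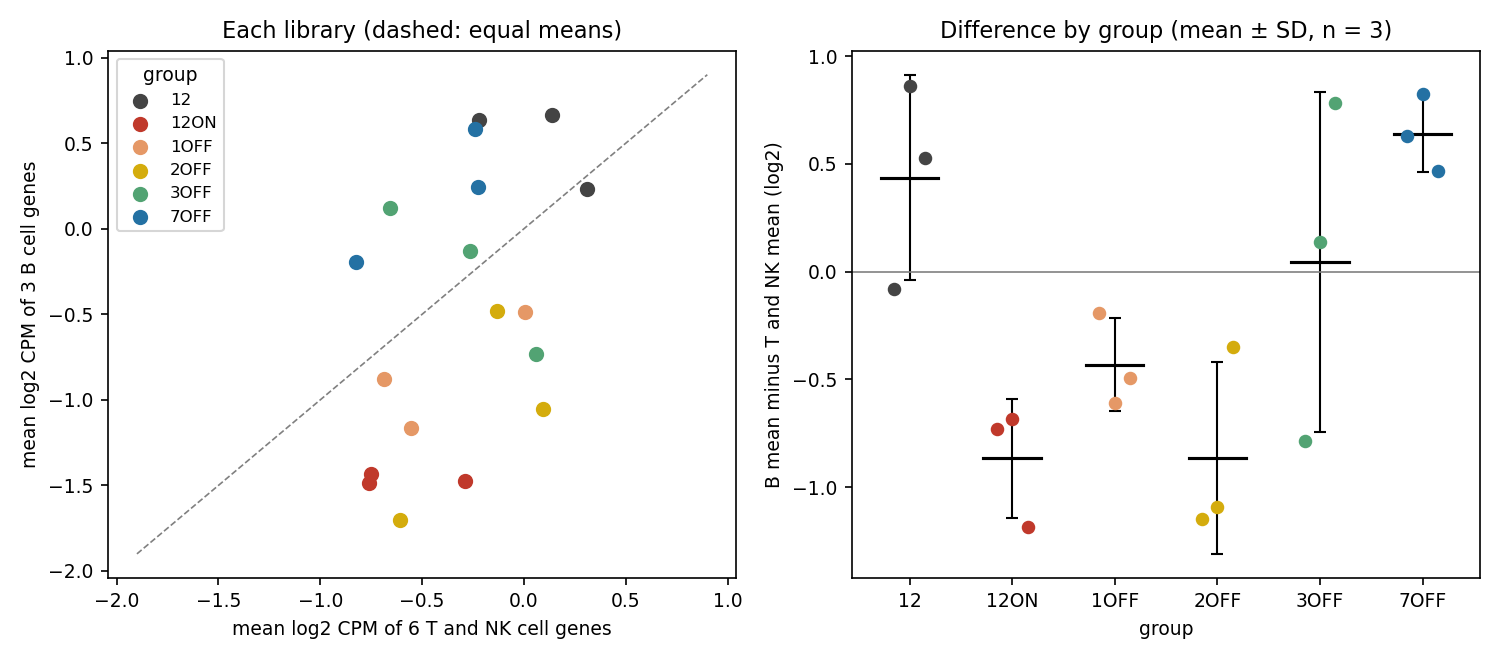
Left, mean log2 CPM of the B cell genes against that of the T and NK cell genes, 1 point per library; right, their difference by group, with the mean ± SD of 3 mice. The 12ON, 1OFF and 2OFF libraries all lie below the line of equal means, and the 7OFF libraries all lie above it.

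Per kb of exon, which allows levels to be compared between genes, Nkg7 was the highest member in group 12 at 1.82 ± 0.22 CPM per kb. It was followed by Cd79a at 1.21 ± 0.17, Gzma at 1.14 ± 0.59 and Cd79b at 0.993 ± 0.045. Cd3g (0.841 ± 0.293), Cd3e (0.495 ± 0.262), Cd4 (0.458 ± 0.208), Cd8a (0.229 ± 0.107) and Ms4a1 (0.191 ± 0.099) were lower, and the spreads of neighbours from Cd79a downward mostly overlapped. In 12ON, Nkg7 was again the highest at 1.60 ± 0.34 CPM per kb, while Cd79a had fallen to 0.180 ± 0.002. On GRCm38, Cd3g (chromosome 9, 44969572 to 44980431) and Cd3e (44998743 to 45009590) are close neighbours, both on the minus strand. Cd79a (24897381 to 24902197) and Nkg7 (43437073 to 43438246) are both on chromosome 7, and Cd4 and Cd8a on chromosome 6. No member's exons shared bases with those of another annotated gene.

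Across the 18 libraries the B cell genes varied together, with Pearson r of log2 CPM of 0.85 for Cd79a and Cd79b, 0.74 for Cd79a and Ms4a1 and 0.73 for Cd79b and Ms4a1. Cd3e and Cd3g had 0.64, and Ms4a1 and Cd8a 0.63. Nkg7 and Gzma had 0.34, and Cd79a with Gzma had -0.15. These values describe libraries that share groups and depth. Outside the list, the gene whose pattern was most like the B cell mean was Ugt1a9 (r = 0.964), a glucuronosyltransferase of hepatocytes, and the next 7 were Pgpep1, Rdh16f2, Ugt1a10, Ugt1a8, Ugt1a2, Ugt1a6b and Ugt1a7c, down to r = 0.956. The Ugt1a genes share exons, and reads over several genes counted for all of them, so they are close to a single measurement. For the T and NK mean the 8 most alike ran from Pram1 (r = 0.844) to Pcsk5 (r = 0.780), with Gm20507, Sipa1, Sept1, Dnajc30 and Ncf1 among those between. Many hepatocyte genes are set apart by the same groups: the 8 hepatocyte markers summed to 114591 to 124355 CPM in group 12, 32191 to 40777 in 12ON and 75356 to 93612 in 7OFF. At day 12, 7 of the 8 fell and 1 rose, where 22.6% of all tested genes fell and 24.0% rose. The part of the hepatocyte genes in the course of the B cell genes was not tested.

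Other genes of the same cells were read from lists chosen by knowledge of the cell types, with earlier results of these data known. Of 24 other B cell genes, 8 were lower and 1 higher in 12ON than in group 12, where 22.6% of all tested genes were lower and 24.0% higher, with a median log2 difference of -0.82. Pax5, the B lineage transcription factor, fell by 2.71 ± 0.51 (adjusted p = 4.90e-04) and the IgM receptor Fcmr by 3.46 ± 0.75 (adjusted p = 0.00152). Both were low already in group 12, at 0.775 ± 0.042 CPM for Pax5 and 0.537 ± 0.087 CPM for Fcmr. In the 12ON libraries 3 reads are 0.055 to 0.066 CPM, so these falls, and the rises in 7OFF given below, rest on few 12ON reads. Ly6d fell by 2.45, or by 1.79 without the second group 12 library, but at 128 ± 81 CPM in group 12 it was far above the other B cell genes of the list, and in 7OFF it had 19.2 ± 2.9 CPM, below its 12ON mean of 23.5 ± 10.9. Blnk, an adaptor also used in macrophages, rose by 1.05 ± 0.26 (adjusted p = 0.00404). The lower count was 5 to 7 with any library left out, 4 with low-Xist libraries, 4 with library totals and 2 with the mitochondrial term. In 7OFF against 12ON, 4 of the 24 rose (among them Fcmr by 3.43, Pax5 by 2.20 and Spib by 1.32) and 2 fell (Blnk and Btk), where 21.4% of all tested genes rose and 22.7% fell. Spib lost its call without the second or the third 12ON library or any 7OFF library but the first, with adjusted p of 0.117 to 0.217, and Btk without the second or the third 12ON library or the first or second 7OFF library (0.0698 to 0.146). With library totals 3 rose and 5 fell, so this list has no direction in 7OFF that holds under each scaling.

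**Figure D4:**
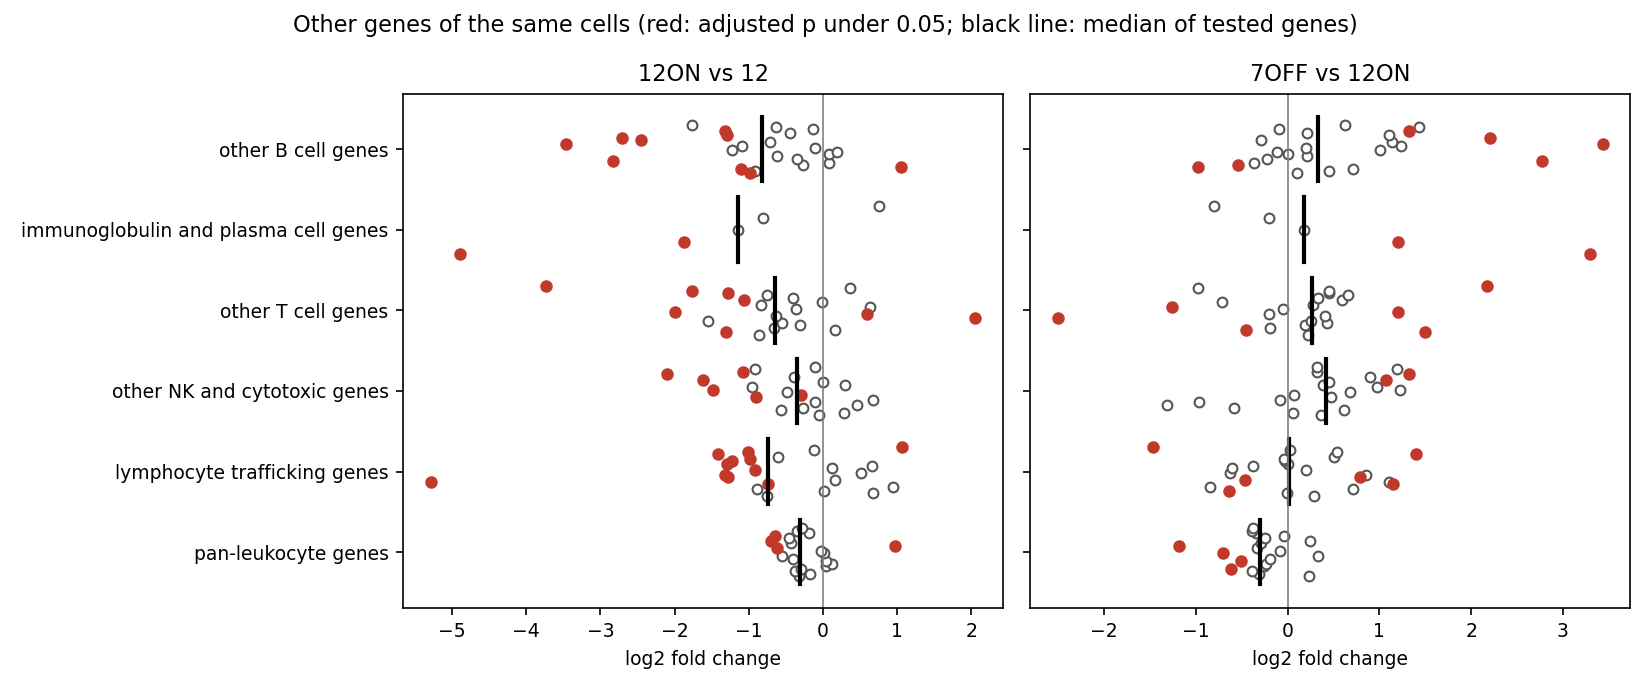
Log2 fold change (horizontal axis) of each tested gene of 6 lists in 12ON against group 12 (left) and 7OFF against 12ON (right), with red points for adjusted p under 0.05 in edgeR and a black line for the list median. Among the other B cell genes Fcmr and Pax5, which had few reads in 12ON, lie far to the left on the left and far to the right on the right. Most genes of each list lie nearer 0.

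Of 5 tested plasma cell genes, 2 were lower and none higher in 12ON than in group 12, where 22.6% of all tested genes were lower and 24.0% higher. Derl3, of protein degradation in the endoplasmic reticulum, fell by 4.89 (by 3.25 without the second group 12 library) and Irf4 fell by 1.87. In group 12 Derl3 had 11.9 ± 13.9 CPM, with libraries from 2.39 to 27.9, and Irf4 had 0.856 ± 0.340 CPM. The same 2 genes rose in 7OFF against 12ON, Derl3 by 3.29 and Irf4 by 1.20, where 21.4% of all tested genes rose and 22.7% fell. The Irf4 rise lost its call without the first or second 12ON library or the second or the third 7OFF library, with adjusted p of 0.0816 to 0.153. Jchain, the joining chain of secreted immunoglobulin, had 4.59 ± 2.15 CPM in group 12, 2.11 ± 0.41 in 12ON and 2.37 ± 1.46 in 7OFF. The immunoglobulin and T cell receptor constant genes were not analysed here.

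Of 22 tested other T cell genes, 6 were lower and 2 higher in 12ON, with a median of -0.65, where 22.6% of all tested genes were lower and 24.0% higher. The kinase Zap70 fell by 3.73 ± 0.54 (adjusted p = 6.23e-05), the costimulator Icos by 2.00, the factor Tcf7 by 1.28 and the kinase Lck by 1.06, the last losing its call without the third group 12 library (adjusted p = 0.0683). Zap70 had 6.68 CPM per kb in group 12, above Cd3e by more than the spread of either, and 0.504 in 12ON. Cd6 rose by 2.06 (3.06 without the third group 12 library) and Foxp3 by 0.59. Foxp3, like Zap70, was above Cd3e in group 12, at 1.24 ± 0.17 CPM per kb against 0.495 ± 0.262, and its cell source was not tested. The lower count was 3 to 7 with a library left out and 3 under library totals, the mitochondrial term or low Xist. In 7OFF against 12ON 21.4% of all tested genes rose and 22.7% fell. Of the 22 T cell genes 3 rose, Zap70 (2.17), Cd2 (2.83-fold) and Icos (1.21), and 3 fell, Cd6 (-2.51), Il7r (-1.26) and Cd247 (-0.46). Of these Zap70 and Cd6 kept the call whichever library was left out, and the 4 others did not. Icos lost it without the second 7OFF library (adjusted p = 0.0553), Cd2 without any 12ON library or the third 7OFF library (up to 0.102), Il7r without the second 12ON library or any 7OFF library (up to 0.240) and Cd247 without the first 12ON or the second or the third 7OFF library (up to 0.0842). Of 20 tested NK and cytotoxic genes, 6 fell in 12ON and none rose, where 22.6% of all tested genes fell and 24.0% rose. The receptor Klrk1 fell by 1.62 ± 0.32 (adjusted p = 7.16e-04), perforin (Prf1) by 2.10 ± 0.44 (adjusted p = 0.00111) and the interleukin receptor chain Il2rb by 0.90 ± 0.24 (adjusted p = 0.00570). Prf1 had only 0.478 ± 0.099 CPM in group 12, and 3 reads in the 12ON libraries are 0.055 to 0.066 CPM, so its fall rests on few reads. Nkg7 and Gzma, genes of the same granules, did not pass the test. Whether Prf1 differed from them in its change was not tested. The count was 3 to 6 with a library left out, 2 with library totals and 1 with either the mitochondrial term or low Xist. In 7OFF against 12ON 2 of the 20 rose, Klrk1 (1.07) and Prf1 (1.32), and none fell, where 21.4% of all tested genes rose and 22.7% fell. With library totals 0 rose and 3 fell, where 7.58% of all tested genes rose and 46.1% fell. Klrk1 lost its call without the second 12ON library (adjusted p = 0.0538), and Prf1 without the first or second 12ON library or the second or the third 7OFF library (adjusted p of 0.0682 to 0.108). Of 2 tested gamma delta T cell genes, 2 were higher in 12ON, with Sox13 at 0.79, where 24.0% of all tested genes were higher. Sox13 fell in 7OFF against 12ON, as did 22.7% of all tested genes.

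Of 22 tested genes of lymphocyte trafficking, 10 fell in 12ON and Vcam1 rose (1.07), where 22.6% of all tested genes fell and 24.0% rose. Cxcl13, the chemokine that attracts B cells into follicles, fell by 5.29 ± 1.00 (adjusted p = 4.84e-04), from 53.2 to 1.34 CPM on average, with a difference of -4.51 without the first group 12 library and -6.07 without the first 12ON library. S1pr1, a receptor for exit from lymphoid tissue that endothelium also expresses, fell by 1.41, and the chemokines Cxcl9 and Cxcl12 fell by 1.28 and 0.74. The split was 3 lower and 7 higher with library totals, so the list has no direction that holds under each scaling, and 2 were lower with the mitochondrial term. In 7OFF against 12ON 3 rose, S1pr1 (1.40) and Cxcl12 (1.15) among them, and 3 fell, Vcam1 (-1.47) among them. Of all tested genes 21.4% rose and 22.7% fell in that comparison.

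Of 20 pan-leukocyte genes, 3 fell in 12ON (Ptpn6 by 0.70, Rac2 by 0.65 and Lcp2 by 0.63) and Ltb rose. Of all tested genes 22.6% fell and 24.0% rose. The median of the 20 was -0.31, and with library totals 0 of them fell and 4 rose. Rac2 lost its call without the third group 12 or second 12ON library (adjusted p of 0.0516 and 0.0557), Lcp2 without the second 12ON library (0.0652) and Ltb without the first or second group 12 or the third 12ON library (0.0513 to 0.0649). The summed level of the 20 was 463 to 513 CPM in group 12, 394 to 461 in 12ON and 322 to 413 in 7OFF. In 7OFF against 12ON, 4 of the 20 were lower and none higher, where 22.7% of all tested genes were lower. The 16 macrophage and neutrophil markers summed to 1897 to 2536 CPM in group 12, 1192 to 1658 in 12ON and 957 to 1327 in 7OFF. In 12ON 6 of the 16 were lower and 1 higher, where 22.6% of all tested genes were lower and 24.0% higher. The 12 dendritic cell markers summed to 22.5 to 29.8 CPM in group 12 and 26.9 to 29.5 in 12ON. The 12 erythroid and platelet markers, which report on blood left in the tissue, summed to 244 to 286 CPM in group 12, 217 to 643 in 12ON and 113 to 179 in 7OFF. In 12ON against group 12, 1 of them rose (9 with library totals) and none fell, where 24.0% of all tested genes rose and 22.6% fell. In 3OFF against 12ON none passed, where 15.3% of all tested genes rose and 17.0% fell, and the 3OFF sums ran from 139 to 752 CPM. In 7OFF against 12ON 10 of 12 fell and 1 rose, where 22.7% of all tested genes fell and 21.4% rose. The part of the macrophage, leukocyte and blood content in the B cell result was not tested.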

How the data were processed

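RNA was poly-A selected and sequenced as single reads of 50 nt. Per the submitters' processing notes, the authors trimmed reads with Trim Galore and aligned them to mm10 with TopHat2 (versions not given in the sources used here). The deposited values are raw counts per gene, made per the file headers with featureCounts v1.5.0-p1 on exons of Ensembl 82 genes, with a minimum overlap of 10 bases, no strand, no reads aligned to several places, and a read counted for each gene it overlapped. Symbols came from a reference table of gene names, which matched 34599 of 34937 IDs. Libraries held 23057899 to 75276898 counts, and replicate libraries differed by a chi-square of 31.6 to 287 per gene, far above sampling noise.

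All 18 libraries entered a single edgeR 4.0.16 quasi-likelihood fit (R 4.3.3) with TMM scaling and filterByExpr at a minimum count of 10, which kept 17789 genes. The residual degrees of freedom were 12, and the coefficient of biological variation was 0.202. Tests were two-sided, with Benjamini-Hochberg adjustment over all tested genes at 0.05, and SE is the log2 difference over the root of F. Log2 CPM of the B cell and T and NK cell means used a prior count of 2. The p-values set each group difference against the spread between mice, estimated over all 6 groups and not over the compared groups alone. The script was tested on simulated data. The members, the lists and 2 of the alternatives (the mitochondrial term and low Xist) were chosen with earlier results of these data known. In each list and comparison up to 4 genes in each direction with the smallest p among those passing were named, and the 8 genes most like the members by Pearson r; Jchain was named after its values were seen. Alternatives were DESeq2 1.42.0, other scalings and filters, the 2 groups fitted alone, a replicate block and leaving out each library. Promoters are RefSeq's on GRCm38.p6, the build of the counts. Some list genes (18 of 205) were not analysed here. Some genes that the naming rule picked are not reported here.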

Additional observations from a re-analysis of the deposited data

How the results depend on the processing

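Calls rested on few reads per gene. Of 81 member values, all kept direction and side of the threshold with DESeq2 size factors in edgeR, 80 with DESeq2, 79 without a filter, 79 with the replicate block, 74 with the 2 groups fitted alone, 67 with the mitochondrial term, 60 with library totals and 60 with low Xist. At 1 CPM in 3 libraries 54 could be tested, and these 54 kept both. Library totals moved the median of all genes by -0.41 (7OFF against 12ON) to 0.49 (12ON against 12). Genes called higher and lower then numbered 9130 and 1403 in 12ON against 12 (4269 and 4029 with TMM), 952 and 6526 in 3OFF against 12ON (2726 and 3028), 1348 and 8204 in 7OFF against 12ON (3801 and 4032), 6774 and 1018 in 1OFF against 12 (3036 and 2903), 7313 and 1137 in 2OFF against 12 (3218 and 3018), 2990 and 667 in 3OFF against 12 (1685 and 1414) and 591 and 361 in 7OFF against 12 (439 and 588). Where values moved, the cause was not tested.

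Members lower in 12ON against 12 numbered 2 with the mitochondrial term in place of 4. Members higher in 3OFF against 12ON were 0 with low Xist in place of 2, and 1 to 2 with a library left out. Members lower in 1OFF against 12 were 1 with library totals, 2 with the groups alone, 0 with the mitochondrial term, 1 with low Xist and 1 to 3 with a library left out. In 2OFF against 12 they were 2, 2, 1, 1 and 2 to 4, the 4 including Cd3e in place of Ms4a1. In 3OFF against 12, 1 was lower with DESeq2, 1 with the replicate block and 0 to 1 with a library left out.

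With library totals these log2 differences changed sign: 12ON against 12, Nkg7 0.32, Gzma 0.051 and Itga1 0.20; 1OFF against 12ON, Nkg7 -0.075; 2OFF against 12ON, Cd3e -0.051 and Nkg7 -0.073. In 3OFF against 12ON Cd3e was -0.032, Cd3g -0.27 and Nkg7 -0.15, and in 7OFF against 12ON Cd3e was -0.26, Nkg7 -0.36 and Gzma -0.33. Nkg7 was 0.24 in 1OFF, 0.24 in 2OFF and 0.17 in 3OFF against 12. With the mitochondrial term Gzma was 0.56 in 12ON against 12, -0.49 in 7OFF against 12ON, and 0.15 in 3OFF and 0.079 in 7OFF against 12. With low Xist, Nkg7 was -0.092 in 1OFF, -0.059 in 2OFF and -0.21 in 7OFF against 12ON, Cd4 was -0.28 in 2OFF, Gzma 0.026 in 3OFF and -0.31 in 7OFF, and Cd3e -0.35 in 7OFF. Against 12 it gave Cd4 -0.82 and Gzma -0.035 in 2OFF, and Cd3e 0.028 and Nkg7 0.081 in 3OFF.

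With a library left out, ranges that crossed 0 against 12ON were, in 1OFF, Cd3e -0.25 to 0.087 and Nkg7 -0.20 to 0.22; in 2OFF, Cd3e -0.047 to 0.22, Nkg7 -0.12 to 0.16 and Cd4 -0.11 to 1.25; in 3OFF, Cd3g -0.13 to 0.26, Nkg7 -0.32 to 0.36 and Gzma -0.63 to 0.88; and in 7OFF, Gzma -0.34 to 1.07, Cd3e -0.24 to 0.42 and Nkg7 -0.14 to 0.21. Against 12 they were Nkg7 -0.38 to 0.049 in 1OFF, Cd4 -0.77 to 0.60 in 2OFF, Nkg7 -0.50 to 0.19 in 3OFF, and in 7OFF Cd4 -0.43 to 0.20, Ms4a1 -0.65 to 0.015, Cd79b -0.40 to 0.015 and Nkg7 -0.24 to 0.040.

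Replicate numbers were not taken as pairs: same-numbered libraries correlated from -0.18 to 0.29, and over the 9 comparisons a library matched its own number best in 19 of 54 cases. The replicate block gave 3 members higher in 3OFF against 12ON (Ms4a1 added, 1.01, adjusted p = 0.0360) and 1 lower in 3OFF against 12, and changed no other member count.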
